A study of Rattus norvegicus with 14 samples.

Results

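Hbb, Hbz, Alas2 and Slc4a1 are genes of the red blood cell lineage, and their levels were read in fetal rat gonads on 14 single-channel Affymetrix arrays. All probe sets that the platform annotation gives to 1 of these 4 symbols were taken. Affymetrix reads a transcript with several short probes, whose signals are merged into the value of 1 probe set. The rule found 5 of the 15866 probe sets tested: 1 each for Hbb, Hbz and Alas2, and 2 for Slc4a1. The arrays fell into 7 groups of 2: fetal testis and fetal ovary, each collected on embryonic day 13 (E13), 14 (E14) or 16 (E16), plus a group of testes taken at E13 and cultured for 3 days on floating filters, in a medium with insulin, transferrin and albumin. Every array carried total RNA of its own pool of 20 to 40 gonads, and the 2 pools of a group were independent. No source used here gives strain, genotype or any step to wash out blood or sort cells. All groups are therefore taken as whole rat gonads, and how much blood they held is not known.

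Haemoglobin is built from alpha-type and beta-type globin chains around haem. The first red cells of the embryo come from the yolk sac and carry embryonic chains. Later red cells, made first in the fetal liver, carry adult chains, and the exchange of one set of chains for the other is called the globin switch. Hbz encodes zeta globin, an embryonic alpha-type chain, and Hbb encodes an adult beta-type chain. Alas2 is the red cell form of the first enzyme of haem synthesis. Slc4a1, band 3, is the chloride and bicarbonate exchanger of the red cell membrane.

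The deposited values were already scaled per array, and array medians were 59.5 to 69.1 intensity units. Amh, the Sertoli cell hormone, was 476.7 or more in every testis array of E14, E16 and culture and was at most 38.5 in ovary, and the male switch gene Sry read 162.8 and 184.9 in fresh E13 testis. Xist, the RNA of the inactive X chromosome, set 4 arrays apart from the others of their sex, and these are called discordant below. It read 36.2, 269.2 and 151.1 in replicate 1 of E13, E14 and cultured testis, and 12.8 in E16 ovary replicate 2. The other testis arrays read 1.5 to 4.8 and the other ovary arrays 151.7 to 672.3. The 36.2 was dim, below the median of its array (68.9), so that array is the weakest case among the testis arrays. RNA quality was read from the actin controls, whose 3′ signal exceeds the 5′ signal more as RNA degrades. That ratio stood at 3.34 for replicate 1 of E16 ovary, at 2.97 for replicate 2 of cultured testis, and at 2.13 or less elsewhere. Results are therefore also given without these arrays. The forms of the array labels point to 3 chip periods, which are a reading of the labels and not recorded batches.

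Hbb was low at E13 and among the brightest signals of the array at E16, while Hbz was bright at E13 and E14 and dimmer at E16. Hbb read 51.3 and 115.4 in E13 testis, 837.4 and 1190.7 in E14 testis, and 4396.4 and 7053.2 in E16 testis. In ovary it read 113.5 and 98.2 at E13, 2023.5 and 341.3 at E14, and 5526 and 3942.6 at E16. The 4 fresh arrays of each age therefore stood apart from those of every other age, with E13 lowest and E16 highest. Testis and ovary were interleaved at each age. The E14 ovary pair was wide, and its gap of Hbb between replicates ranked 3 among all probe sets. The probe set name of Hbb (1367553_x_at) ends in x, the platform's mark for probes that can also bind other transcripts, so part of its signal may belong to other beta-globin genes. Its top value, 7053.2, lay near the highest signal of that array, 7841.9, so differences between the brightest arrays may be compressed.

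Hbz (1371294_at) read 2567.3 and 2887.7 in E13 testis, 3577.5 and 4465.9 in E14 testis, and 1186.5 and 343.1 in E16 testis. In ovary the readings were 3005 and 2898 at E13, 4933.5 and 3075.4 at E14, and 898.9 and 171.1 at E16. All 4 fresh E16 arrays were below all 8 fresh arrays of E13 and E14, and all 4 fresh E14 arrays were above those of E13. At E16 the pairs were wide: replicate 1 was the higher one in both sexes, and the gap of Hbz between replicates ranked 20 in E16 testis and 16 in E16 ovary among all probe sets.

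**Figure D1:**
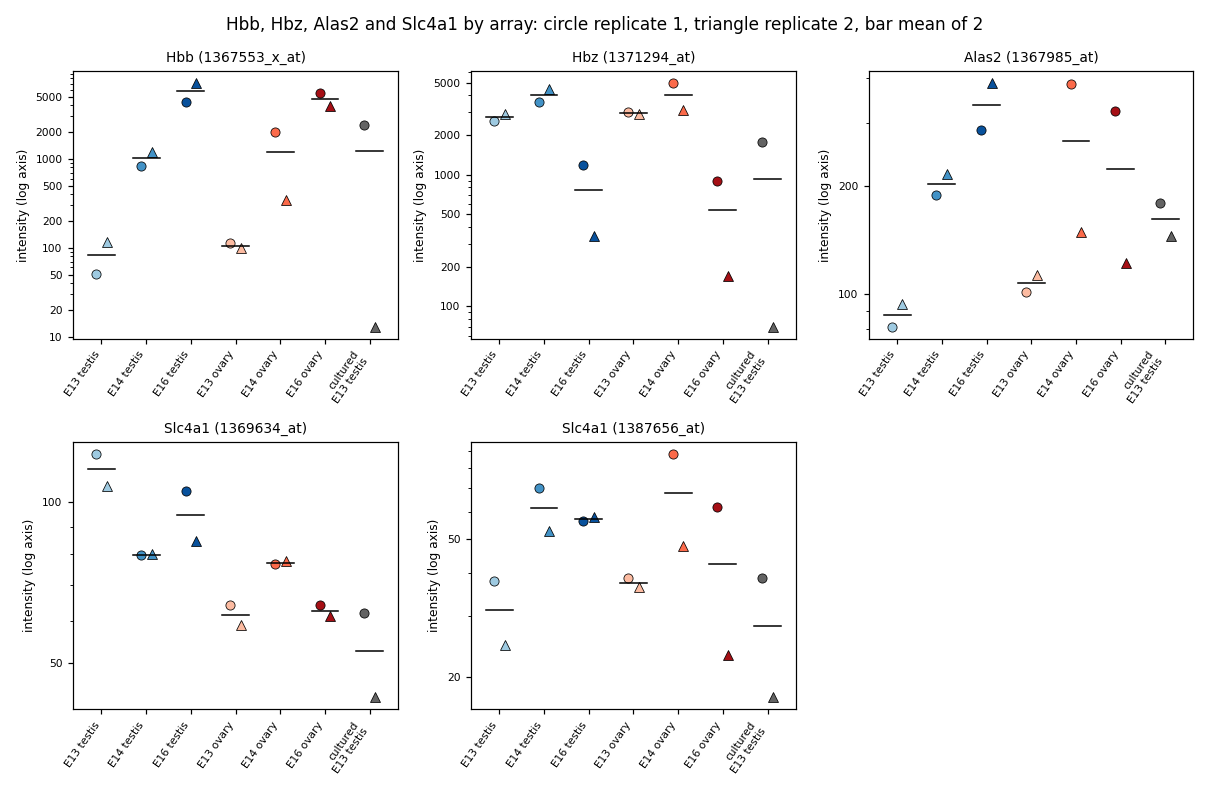
Intensity (vertical log axis) of the 5 probe sets of Hbb, Hbz, Alas2 and Slc4a1 in the 7 groups, with a circle for replicate 1, a triangle for replicate 2 and a bar for the mean of 2. Hbb climbs from 51.3 to 115.4 at E13 to 3942.6 to 7053.2 at E16 in fresh gonads, Hbz is lowest at E16 among fresh groups, and cultured testis replicate 2 has the lowest Hbb and Hbz readings of all arrays.

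The stretches just before Hbb and Hbz, which differed in opposite directions between E13 and E16, show how far the short motifs known from globin promoters are present in each. Both are RefSeq sequences of build GRCr8, 250 bases long and ending at the base before the annotated start of the gene. The Hbb stretch is chr1:167663722-167663971 and the Hbz stretch is chr10:15849758-15850007, both read on the minus strand, and each lies outside its gene as RefSeq annotates it. They are printed 5′ to 3′, and capitals mark matches, on either strand, to 4 kinds of motif. These are CCAAT, the box named for its letters, CACCC, the core of the box bound by Klf1, GATAA, which is read by Gata factors, TATAA, the usual form of the TATA box, and CATAAA, its form in many beta-globin genes.
Hbb: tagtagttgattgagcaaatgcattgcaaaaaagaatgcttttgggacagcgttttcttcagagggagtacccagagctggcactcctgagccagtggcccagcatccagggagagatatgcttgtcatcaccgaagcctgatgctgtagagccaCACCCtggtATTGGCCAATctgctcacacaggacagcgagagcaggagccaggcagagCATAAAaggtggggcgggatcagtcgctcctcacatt
Hbz: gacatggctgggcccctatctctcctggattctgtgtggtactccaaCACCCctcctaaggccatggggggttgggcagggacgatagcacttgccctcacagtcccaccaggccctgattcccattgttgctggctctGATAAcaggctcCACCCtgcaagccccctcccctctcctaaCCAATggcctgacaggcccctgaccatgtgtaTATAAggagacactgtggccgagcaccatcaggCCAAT

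Hbb held CATAAA 37 to 32 bases before the start, CACCC 95 to 91 bases before it, and CCAAT on the plus strand at 81 to 77 next to one on the minus strand at 86 to 82. Hbz held TATAA at 38 to 34, CCAAT at 70 to 66 and again at 5 to 1, CACCC at 99 to 95 and 203 to 199, and GATAA at 111 to 107. The letters GATAA were not in the Hbb window. Of 33469 RefSeq promoter windows of 250 bases, 34.0% held CCAAT, 49.2% CACCC, 23.5% GATAA and 31.1% either TATA form. All 4 kinds, as in Hbz, were in 1.29% of windows, and the CCAAT, CACC and TATA boxes together, as in both genes, were in 4.22%. Neither set was particular to these genes among the globins. The windows of Hba-a1 and Hba-a2, alpha-type genes, also held all 4 kinds. Those of Hbb-bs, Hbbl1, Hbb-b1 and Hbb-b2, beta-type genes, held the CCAAT, CACC and TATA boxes without GATAA. Hbe1 held GATAA without CACCC, and Hba-a3 held neither of these. These are matches of letters and not binding sites. Among the 8 beta-type globin genes looked up on rat chromosome 1 in RefSeq, Hbb is next in order to Hbg1. Then follow Hbe2 and Hbe1, which are embryonic beta-type genes, as is Hbg1. Other genes that may lie between them were not looked up.

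Over both sexes, Hbb rose from E13 to E16 by 5.58 on the log2 scale, 47.8-fold (95% confidence interval of the log2 difference 3.27 to 7.89, adjusted p = 0.0204 by limma, higher in 4 of 4 arrays). Differences are of log2(intensity + 16), and p-values were adjusted over all probe sets by the Benjamini-Hochberg method with a threshold of 0.05. This mean of the testis and ovary steps was added after the data had been seen. It called 1 of the 5 probe sets, against 2.27% of all probe sets. The call was lost (adjusted p = 0.0510 to 0.0898) when any 1 of the 8 fresh E13 and E16 arrays was left out, while the size stayed between 5.34 and 5.82. It was also lost without the 4 arrays with discordant Xist (5.46, adjusted p = 0.0523) and when chip period was blocked (5.48, adjusted p = 0.0504).

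The cultured pair, which differed from each other more in Hbb than any fresh pair did, enters the shared estimate of the spread in that fit. With the 12 fresh arrays alone the same Hbb rise had an interval of 4.54 to 6.62 and an adjusted p of 0.000482. Hbz then fell by 2.45, 5.47-fold (interval -3.52 to -1.38, adjusted p = 0.0312, lower in 4 of 4 arrays). With all 14 arrays Hbz did not pass (adjusted p = 0.165). The fresh fit, likewise added after seeing the data, called 2 of 5 probe sets against 2.38% of all. An exact two-sided permutation test of 4 E16 against 4 E13 arrays gave p = 0.0286 for Hbb and for Hbz, the smallest value that 4 against 4 can give, and 42 such tests were run on the globins, Alas2 and Slc4a1. Groups of 4 and 4 did not overlap between E16 and E13 in 7.57% of all probe sets.

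**Figure D2:**
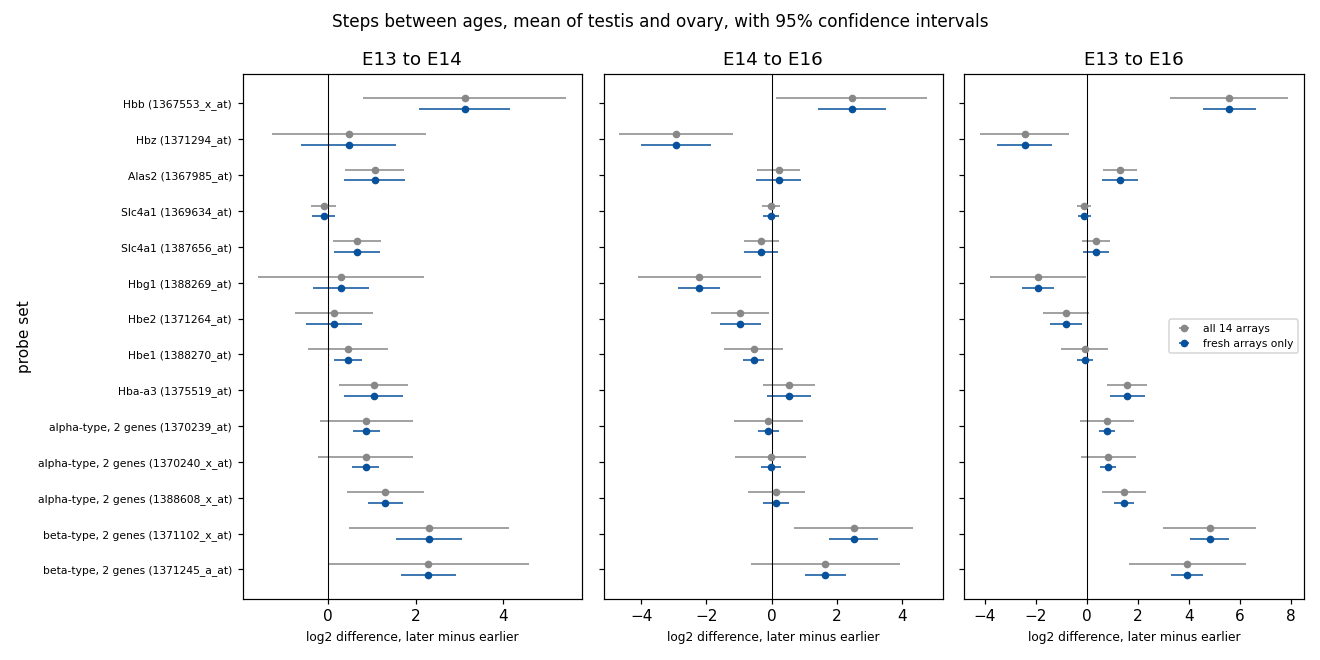
Log2 differences between ages (horizontal axis, later minus earlier, mean of testis and ovary) of the 5 probe sets and 9 other globin probe sets, as points with 95% confidence intervals. Grey marks the fit to all 14 arrays and blue the fit to the 12 fresh arrays; the points are the same and the globin intervals are narrower in blue, as for Hbb from E13 to E16 (3.27 to 7.89 and 4.54 to 6.62).

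Within each sex, no Hbb, Hbz, Alas2 or Slc4a1 probe set passed with all 14 arrays. In testis from E13 to E16, 0 of 5 passed by limma (2 at an unadjusted p under 0.05), against 0.945% of all probe sets. Hbb differed there by 5.89 (interval 2.62 to 9.17, adjusted p = 0.114) and Hbz by -2.06 (adjusted p = 0.572). In ovary, 0 of 5 passed (2 unadjusted), against 0.889%, with Hbb at 5.27 (adjusted p = 0.162) and Hbz at -2.84 (adjusted p = 0.379). The fresh arrays alone called 1 of 5, Hbb, in testis (adjusted p = 0.00376, against 0.908% of all probe sets) and in ovary (adjusted p = 0.00883, against 0.914%). Inside 1 chip period, with 1 array a group, the testis difference was 5.75 for Hbb and -3.02 for Hbz, and in ovary, with 2 arrays at E13, they were 5.51 and -1.70.

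Neither shorter step passed by limma for Hbb or Hbz, over both sexes or within 1 sex. From E13 to E14 Hbb differed by 3.12 (adjusted p = 0.496 with all arrays and 0.0508 with fresh arrays), and Hbz by 0.47. From E14 to E16 Hbb differed by 2.46 (adjusted p = 0.672 and 0.145) and Hbz by -2.93 (adjusted p = 0.329 and 0.0914). In the exact test, E14 against E13 gave p = 0.0286 for both genes, and so did E16 against E14; 3.49% and 2.53% of all probe sets had groups that did not overlap in these steps. Of the 5 probe sets, 0 passed in testis from E13 to E14 (3 unadjusted, 0.0693% of all probe sets called) and from E14 to E16 (1 unadjusted, 0.12%). In ovary 0 passed in either step (1 unadjusted in each), where 0% of all probe sets were called.

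Set against each other within each array, Hbz exceeded Hbb at E13 and E14 and the order was turned at E16. The difference log2 Hbz minus log2 Hbb was 5.26 and 4.47 in E13 testis, 2.07 and 1.89 in E14 testis, and -1.88 and -4.30 in E16 testis. In ovary it was 4.54 and 4.67, then 1.28 and 3.11, then -2.60 and -4.40. The 8 arrays of E13 and E14 were all above 0 and the 4 fresh arrays of E16 all below. Probe sets bind with unlike strength, so the point at which the sign turns is not the point of equal RNA. For the level of either gene alone, fewer red cells and less RNA per red cell cannot be told apart in bulk RNA. What turned the order of the 2 genes was not tested.

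**Figure D3:**
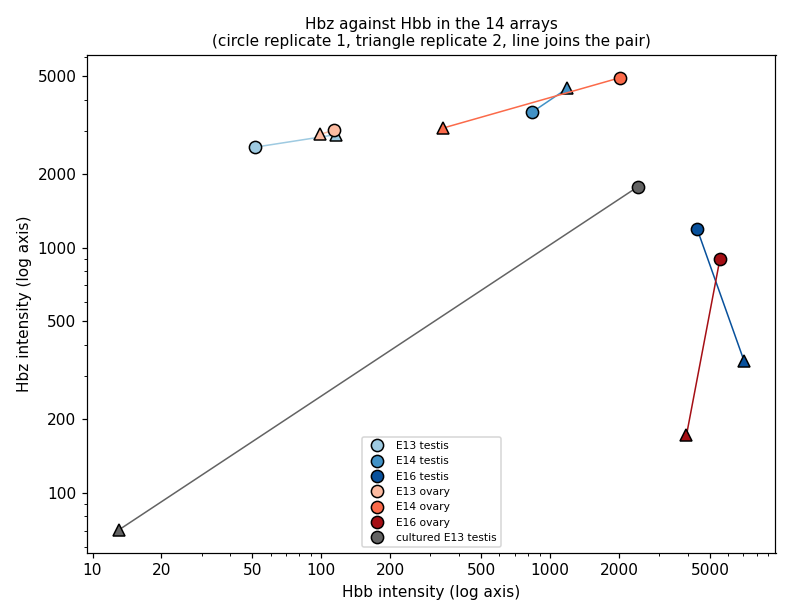
Hbz intensity against Hbb intensity in the 14 arrays (both log axes), with a circle for replicate 1, a triangle for replicate 2 and a line joining the pair of a group. The E13 arrays lie at the upper left (Hbb 51.3 to 115.4), the E14 arrays at higher Hbb (341.3 to 2023.5), the E16 arrays at the lower right (Hbz 171.1 to 1186.5), and the cultured pair spans the plot.

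The remaining globin probe sets held beta-type ones with differences like that of Hbb, embryonic ones with lower or similar readings at E16, and alpha-type ones with smaller differences. Hbg1 (1388269_at), an embryonic beta-type gene, read 2931.9 and 5235.8 in E13 testis, 4585.1 and 5478.3 in E14 testis, and 1554.8 and 892.4 in E16 testis. In ovary it read 2787.6 and 3117.1, then 3419.1 and 3590.9, then 1020.8 and 430.3. Its fall of 1.92 from E13 to E16 passed with fresh arrays (adjusted p = 0.00836 by limma) and not with all 14 (adjusted p = 0.343). The E16 arrays of Hbg1 lay below all others of the fresh groups. Of all probe sets, 7.57% did not overlap between E16 and E13, and 2.53% between E16 and E14. From E14 to E16 Hbg1 also passed with fresh arrays (-2.22, adjusted p = 0.0279 by limma).

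Hbe1 (1388270_at), an epsilon-type embryonic gene, was bright at all 3 ages. It read 3654.1 and 5160.9 in E13 testis, 5482.9 and 6268.8 in E14 testis, and 4739.8 and 4854.9 in E16 testis, and in ovary 3916.1 and 3928.5, then 5630.9 and 5369.6, then 3463.6 and 2799.4. Its E13 and E16 arrays overlapped (log2 difference -0.09, exact permutation p = 0.686). All 4 fresh E14 arrays were above those of both other ages (exact permutation p = 0.0286 for each). Of all probe sets, 3.49% did not overlap between E14 and E13, and 2.53% between E16 and E14. Hbe2 (1371264_at) was dim, at 27.7 to 182.5 in fresh arrays, and its difference of -0.82 from E13 to E16 did not pass (adjusted p = 0.401, and 0.204 with fresh arrays).

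Hba-a3 (1375519_at), an alpha-type gene, read 84 and 153.3 in E13 testis and 501.6 and 546.6 in E16 testis, and 299.1 and 137.6 in E13 ovary and 626.4 and 337.1 in E16 ovary. It rose by 1.58 over both sexes (adjusted p = 0.0460 by limma, and 0.0278 with fresh arrays). Its E13 and E16 arrays did not overlap, as in 7.57% of all probe sets. A further 5 probe sets are each given to 2 globin genes by the annotation and are described without a gene name. The 2 beta-type ones rose by 4.82 and 3.94 from E13 to E16 (adjusted p = 0.000279 for each with fresh arrays, 0.0127 and 0.0837 with all 14). The 3 alpha-type ones rose by 0.78, 0.84 and 1.46 with fresh arrays (adjusted p = 0.0194, 0.0146 and 0.00356), and 0 of the 3 passed with all 14 (adjusted p = 0.527, 0.501 and 0.0954; 1 at an unadjusted p under 0.05). Near-identical copies share probes, so signal may be split between genes in all of these. In E14 testis replicate 2, 2 of the alpha-type probe sets read 7209.2 and 7114.9 and Hbe1 read 6268.8. The highest signal of that array was 7751.5, so differences of these probe sets between bright arrays may be compressed, as for Hbb.

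**Figure D4:**
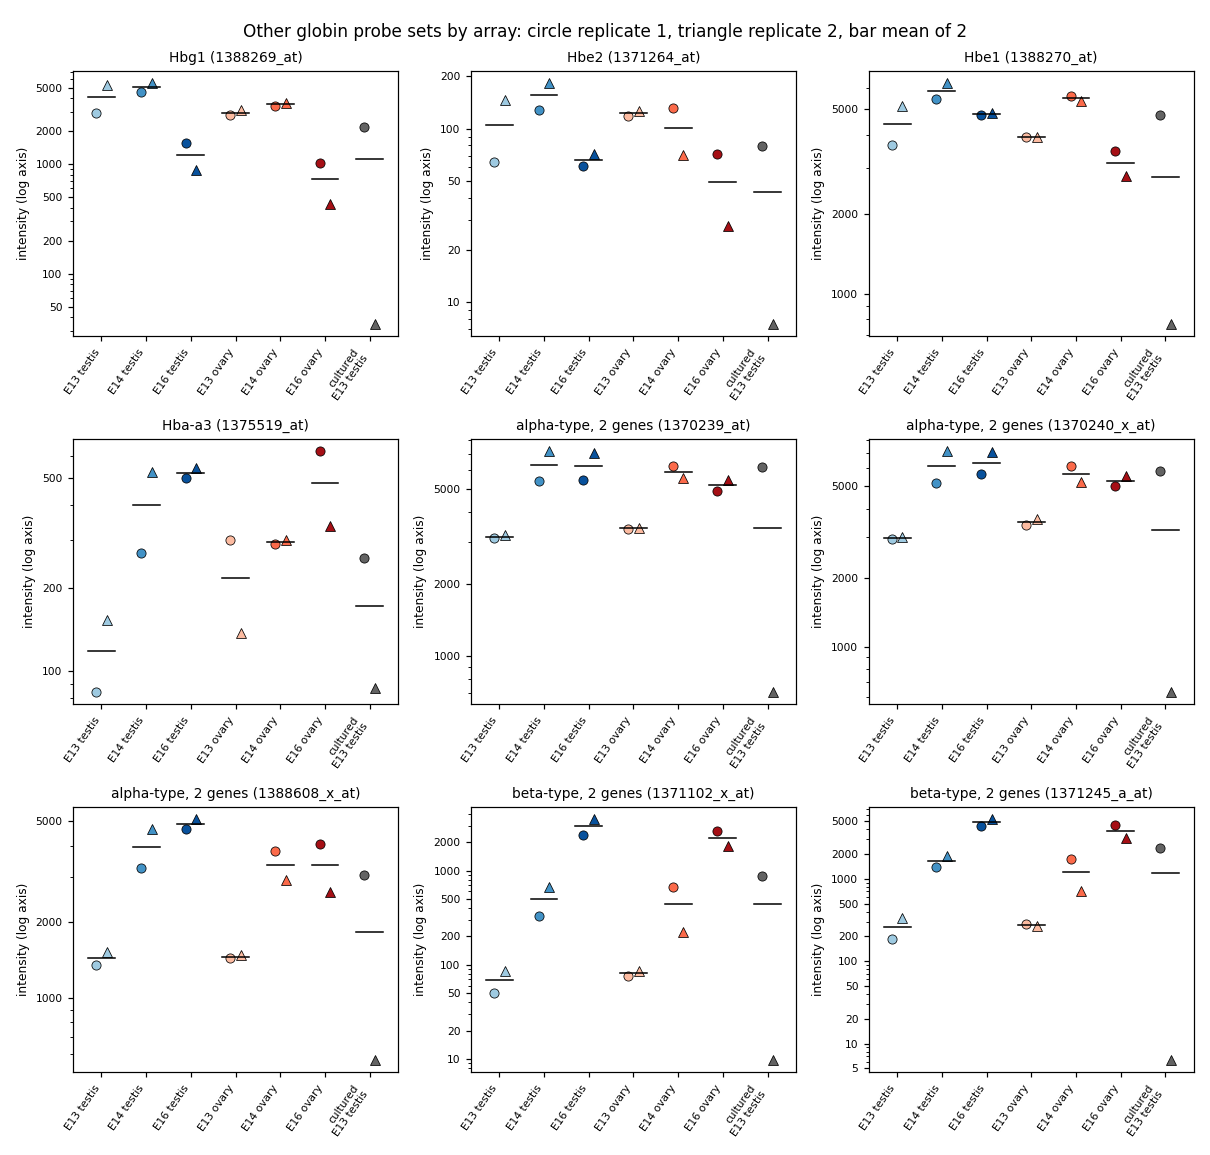
Intensity (vertical log axis) of the 9 other globin probe sets in the 7 groups, with a circle for replicate 1, a triangle for replicate 2 and a bar for the mean of 2. The beta-type probe sets shared by 2 genes climb with age like Hbb, Hbg1 is lowest at E16 among fresh groups (430.3 to 1554.8), Hbe1 is highest at E14, and cultured replicate 2 is the lowest array in all panels but that of Hba-a3.

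Alas2 (1367985_at) was low at E13 and higher at both later ages. In testis it read 81.4 and 94.0 at E13, 188.4 and 215.9 at E14, and 285.6 and 386.3 at E16. In ovary it read 101.7 and 113.3, then 384.9 and 149.2, then 323.5 and 122.3, so the later ovary pairs were wide. All fresh arrays of E14 and of E16 were above all those of E13 (exact permutation p = 0.0286 for each age). Of all probe sets, 3.49% did not overlap between E14 and E13, and 7.57% between E16 and E13. The Alas2 arrays of E14 and E16 overlapped (exact permutation p = 0.629). The rise of 1.28 over both sexes from E13 to E16, 2.43-fold, missed the threshold (adjusted p = 0.0553, and 0.0723 with fresh arrays). Blocking on chip period brought it past (1.71, adjusted p = 0.0158). The testis difference was 1.75 (adjusted p = 0.0996) and the ovary difference 0.81 (adjusted p = 0.555).

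The 2 probe sets of Slc4a1 lay near the middle of the array's signals, at the percentiles 54.2 and 40.4 of mean intensity over all probe sets, and their arrays did not follow the same order. The first (1369634_at) read 123.4 and 107.6 in E13 testis, 79.7 and 79.9 in E14 testis, and 105.3 and 84.5 in E16 testis, against 64.1 and 58.9, 76.5 and 77.7, and 64.1 and 61.1 in ovary. The second (1387656_at), designed on the same sequence record, read 37.8 and 24.7, then 70.4 and 52.7, then 56.3 and 58.0 in testis, and 38.5 and 36.3, then 88.1 and 47.6, then 61.9 and 23.1 in ovary. In the first, both testis arrays were above both ovary arrays at E13 and at E16, ages at which the 2 groups did not overlap in 46.2% and 41.8% of all probe sets, and the second Slc4a1 probe set did not repeat that order. Their E13 and E16 arrays overlapped (exact permutation p = 0.714 and 0.229). The second had all E14 arrays above all E13 arrays (exact permutation p = 0.0286), ages that did not overlap in 3.49% of all probe sets.

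Between the sexes no difference passed at any age. Of the 5 probe sets, 0 passed at E13 (1 unadjusted, 0.0126% of all probe sets called), 0 at E14 (0 unadjusted, 0.139%) and 0 at E16 (1 unadjusted, 1.74%). Hbb in testis minus ovary was -0.37 at E13, 0.25 at E14 and 0.25 at E16, with a standard error of 1.49 at each age. Hbz was -0.12, 0.04 and 0.67, and Alas2 was -0.25, -0.24 and 0.68. The largest of these sex differences relative to its error was that of the first Slc4a1 probe set at E13 (0.76, adjusted p = 0.449), which was 0.49 at E16 (adjusted p = 0.261), while the second was at -0.19 and 0.41. The E13 to E16 step in testis minus that in ovary was 0.62 for Hbb (adjusted p = 0.985), 0.78 for Hbz (0.975) and 0.94 for Alas2 (0.881). In that comparison 0 of 5 passed by limma (0 unadjusted, 0.145% of all).

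The cultured testes gave no common level of globin RNA. Replicate 1 read 2420.5 for Hbb and replicate 2 read 13, the lowest Hbb value of all arrays. Hbz read 1770.9 and 70.3 in the same order. By the gap between the 2 cultured arrays, Hbb ranked 2 and Hbz 6 among 15866 probe sets, with Hbg1 at 3 and the beta-type probe sets shared by 2 genes at 1 and 4. Of the 11 globin probe sets, 10 had their lowest reading of all arrays in cultured replicate 2, the array with the actin ratio of 2.97, and its Ahsp reading, of the chaperone of free alpha chains, was 6.5 against 74.3 in replicate 1. Alas2 did not follow them, at 179.1 and 145.8. The part of RNA quality in this gap was not tested.

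Against fresh E13 testis, culture left Hbb (1.50, adjusted p = 0.773), Hbz (-2.80, adjusted p = 0.333) and Alas2 (0.78, adjusted p = 0.512) without a call. The first Slc4a1 probe set was lower in culture, at 61.9 and 43.1 against 123.4 and 107.6 (log2 -0.95, adjusted p = 0.0295 by limma, lower in 2 of 2 arrays). That was 1 of 5 probe sets, against 1.39% of all by limma (these 2 groups did not overlap in 39.5%), and the second Slc4a1 probe set did not repeat it, at 38.7 and 17.5 against 37.8 and 24.7 (-0.13, adjusted p = 0.930). The call was lost with offset 1 (adjusted p = 0.0579), without the arrays with discordant Xist (0.192), without those of high actin ratio (0.232) and with only these groups in the fit (0.266). It was also lost when cultured replicate 2, either E13 testis, either E14 testis or either E13 ovary array was left out (0.0522 to 0.198). Against fresh E16 testis 0 of 5 passed (4 unadjusted, 0.0945% of all), with Hbb at -4.39 (adjusted p = 0.594).

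Across the 14 arrays Hbb ran most closely with the beta-type probe sets shared by 2 genes (Pearson r = 0.99 and 0.97), and Hbz with Hbg1 (r = 0.95). Hbb and Alas2 had r = 0.77 (Spearman rho = 0.77), and the 2 Slc4a1 probe sets had r = 0.30. Hbb and Hbz had r = -0.07, and -0.61 over the 12 fresh arrays. These describe 14 arrays that share groups, ages and scaling. Within groups, the differences between replicates of Hbb and of Hbz had the same sign in 6 of 7 groups. The 10 probe sets with 1 symbol most like Hbb had r = 0.83 to 0.88. They were Rec114, Hsd17b8, Hba-a3, Tmem248, Cox6b2, Tmem176a, Gclm, Polr1b, Sycp3 and Sycp2.

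From 5 lists of other red cell genes, Aqp1, Stom and Gclm passed from E13 to E16 over both sexes with all 14 arrays, a comparison that called 2.27% of all probe sets. Among haem synthesis probe sets other than Alas2, 0 of 5 passed by limma (2 at an unadjusted p under 0.05), 0 of 8 for erythroid transcription factors (1 unadjusted) and 0 of 11 for iron uptake and erythropoietin signalling (0 unadjusted). Of 17 probe sets for red cell membrane and skeleton, 2 rose: Aqp1, a water channel (1.25, adjusted p = 0.00229), and Stom, stomatin (0.85, adjusted p = 0.0105). Aqp1 read 3.4 to 20.5 in the E13 arrays and 47.3 to 61 at E16, but a second Aqp1 probe set read 72.9 to 103.1 and 77.6 to 115.1. Stom read 61.9 and 39.7 in E13 testis and 160.2 and 190.6 in E16 testis, and 59.2 and 58.9 in E13 ovary and 73.6 and 63.9 in E16 ovary. Of 16 for red cell enzymes and chaperones, 1 rose: Gclm, a subunit of the first enzyme of glutathione synthesis (0.81, adjusted p = 0.0111). The list medians were 0.29, -0.07, -0.05, -0.03 and 0.15 in this order, and that of all probe sets was -0.02. In other comparisons of these lists, Stom was higher in testis than in ovary at E16 (1.17, adjusted p = 0.0148 by limma). Tfrc, the transferrin receptor, and Slc40a1, the iron exporter ferroportin, were lower by 1 probe set each (-1.01 and -1.14, adjusted p = 0.0229 and 0.0365 by limma). In this comparison 1.74% of all probe sets were called. A second Tfrc probe set did not repeat the order, with E16 means of 208.95 in testis and 193.3 in ovary. Other Slc40a1 probe sets had E16 means of 24.7 and 78.1 in testis, and 27.95 and 161.65 in ovary, without a call. In culture against fresh E13 testis, Aqp1, Stom and Hmox1, a haem oxygenase, were higher (2.25, 1.29 and 1.18, adjusted p = 0.00080, 0.0108 and 0.0298 by limma). In this comparison 1.39% were called. That Aqp1 probe set was very dim in fresh E13 testis (mean 7.9). The second Aqp1 probe set had means of 109 in culture and 88 in fresh E13 testis, without a call.

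Among the listed red cell genes, Gata1, Rhag and Car1, picked after their values were seen, were dim in every array, and some others were not. Hemgn and Nfe2, from the same lists and picked in the same way, had low group means too, 18.25 to 46.65 and 12.4 to 23.75. Group means were 531.55 to 1091.75 for the brighter Tfrc probe set and 436.9 to 622.9 for Urod, from the haem synthesis list. Gata1, a transcription factor of the lineage, read 28.1 to 46.3, Rhag, a membrane protein of the Rh complex, read 5.1 to 41.8, and Car1, a red cell carbonic anhydrase, read 2.6 to 25.4. The lower quartile of all probe sets was 20.5 to 26.4. Ahsp read 62.1 and 58.1 in E13 testis, 126 and 168.5 in E14 testis and 131.3 and 120.7 in E16 testis, and in ovary 49.6 and 44, then 134.3 and 68.4, then 140.3 and 64.3. All fresh Ahsp readings at E14 and E16 were above those at E13. Of all probe sets, 3.49% did not overlap between E14 and E13, and 7.57% between E16 and E13. Neither the testis nor the ovary difference of Ahsp passed (0.90 and 0.84, adjusted p = 0.605 and 0.666 by limma).

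Lists of other blood, vessel and liver cells that a gonad sample can hold had no call from E13 to E16 over both sexes with all 14 arrays, where 2.27% of all probe sets were called, so that counts of 0 in lists of these sizes do not set them apart. By list this was 0 of 18 for fetal liver and yolk sac by limma (1 at an unadjusted p under 0.05), 0 of 17 for macrophages and white blood cells (3), 0 of 14 for endothelium (1) and 0 of 3 for platelets (1). The summed intensity of the fetal liver and yolk sac list was 383 to 473.5 in the fresh E13 arrays and 368 to 580.3 at E16. It reached 981.1 in E14 testis replicate 1, where Alb, serum albumin, read 250.9 and Afp, alpha-fetoprotein, read 171.3, and that array had less Hbb and Hbz than its replicate. The macrophage list summed to 694.1 to 811.2 at E13 and 811.2 to 903.4 at E16, and to 1041.2 and 1150.5 in cultured testis. From that list Cd74, the invariant chain of antigen presentation, was lower in testis than in ovary at E14 (-1.98, adjusted p = 0.0320 by limma) and E16 (-1.60, adjusted p = 0.0212). In culture against fresh E13 testis Cd74 was lower (-1.49, adjusted p = 0.0343) and Lyz2, a lysozyme, was higher (1.14, adjusted p = 0.0313). The endothelium list summed to 1295.5 to 1609.7 at E13, 933.3 to 1817.7 at E14 and 999.6 to 1441.5 at E16. Its widest pair was E14 ovary, at 1817.7 in replicate 1 and 933.3 in replicate 2. No probe set of these lists was at 0 in any array, and their part in the globin differences was not tested.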

How the data were processed

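Total RNA of pooled gonads was labelled with biotin and hybridised, 1 array per pool, per the labels' protocols. The deposited values are intensities on a linear scale, 1 per probe set and array. No source used here gives the software or the background correction. A mean of 125, after trimming 2% of probe sets at each end, in all 14 arrays shows that the authors' values were scaled per array. Of all values, 27 were 0.

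The 57 Affymetrix controls were left out. Values were analysed as log2(intensity + 16), which understates changes of dim probe sets, with no further normalization. A model of 7 groups was fitted to 15866 probe sets by limma 3.58.1 under R 4.3.3 (functions lmFit and eBayes, with 7 residual and 4.16 prior degrees of freedom, Benjamini-Hochberg over all probe sets), for 12 comparisons and the steps over both sexes. Exact permutation tests used scipy 1.17.1. The fit was tested on simulated data. The 2 arrays per group limit the precision of every value.

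Genes were named from the platform annotation, which gave 12783 probe sets 1 symbol, 312 several and 2771 none; the 9 named globin, Alas2 and Slc4a1 probe sets matched RefSeq (GRCr8) by gene identifier with unchanged symbols. Named were all probe sets of the 4 genes, up to 2 members per direction of each other list that passed, the 10 most like Hbb, and label checks. Other genes named were chosen after their values were seen. Members and lists were chosen with earlier results of these data known. Correlations are given without p-values. The alternatives were offset, normalization, a filter on dim probe sets, blocks, a trend, groups in the fit and arrays left out.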

Additional observations from a re-analysis of the deposited data

Results flagged for a closer look

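The first Slc4a1 probe set (1369634_at) differed between ages with opposite signs in the 2 sexes, with no overlap between the arrays of 2 ages, though none of these differences passed by limma. From E13 to E14 it differed by -0.454 in testis (adjusted p = 0.624) and 0.265 in ovary (adjusted p = 1), and from E14 to E16 by 0.205 in testis (adjusted p = 1) and -0.244 in ovary (adjusted p = 0.939). In these comparisons, in the same order, the arrays did not overlap in 35.6%, 30.5%, 34.8% and 28.1% of all probe sets. The difference between the sexes in these steps was not tested. For E13 to E16 it was tested and did not pass (-0.27, adjusted p = 0.944 by limma). The second Slc4a1 probe set differed by 0.72 in testis and 0.61 in ovary from E13 to E14.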

How the results depend on the processing

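Depth of signal limits these results: 2 arrays a group, Slc4a1 near the middle of all probe sets, and Hbb near the top of the range at E16. The labels tie the replicate numbers to no shared litter or day, so the arrays were not taken as paired. Even so, deviations of same-numbered arrays correlated at -0.053 to 0.530, over 0.1 in 15 of 21 pairs of groups, so same-numbered arrays shared some variation. Replicate 2 was in the same chip period in 6 of 7 groups. With the replicate block the count among the 5 probe sets over both sexes from E13 to E16 was 2 in place of 1, through Alas2 (adjusted p = 0.0425), and no other count among the 5 changed. Over all probe sets that block gave 520 calls against 360 in this step, 276 against 141 in ovary from E13 to E16, 18 against 11 in testis from E13 to E14 and 36 against 22 in testis minus ovary at E14. Chip period as a block called 1 probe set in testis from E13 to E16, where all arrays without it called 0.

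For the E13 to E16 step over both sexes (1 probe set called), the count was 0 with offset 1 and without the arrays of discordant Xist, and 2 with quantile normalization, the filter at a mean intensity of 50, an intensity trend in eBayes, fresh arrays only, and without the 2 arrays of high actin ratio. That last setting also called 1 in the E14 to E16 step over both sexes, 1 in testis and 2 in ovary from E13 to E16, where 0 were called with all arrays. Fresh arrays only, and only the groups compared, each called 1 in testis and 1 in ovary for E13 to E16. For cultured against fresh E13 testis (1 called), the count was 0 with offset 1, without the arrays of discordant Xist, without those of high actin ratio and with only the groups compared. Leaving out 1 array at a time gave 0 to 1 in testis and in ovary from E13 to E16 and in cultured against E16 testis, 0 to 2 in cultured against E13 testis and over both sexes from E13 to E16, and 0 in the others. The cause of these changes was not tested.

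Of 1925 single values under alternatives, 1811 kept direction and side of the threshold, 22 lost a call, 31 gained one, and 61 changed sign, of which 29 with 1 array left out; no value called with all arrays changed sign. In testis minus ovary, chip period as a block gave 0.147 (Alas2), 0.351 (Hbz) and 0.161 (second Slc4a1 probe set) at E13; -0.28 (Hbb), 0.213 (Alas2), -0.0349 and 0.105 (first and second Slc4a1) and -0.462 (Hbz) at E14; and -0.276 (Hbb) at E16. The same block gave 0.0554 for the second Slc4a1 in culture against E13 testis, and -0.244 (Hbb) and -0.183 (Hbz) for the testis step minus the ovary step. At E14, chip batch as a random block gave 0.037 (Alas2), -0.0023 and 0.0139 (first and second Slc4a1) and -0.0714 (Hbz), and quantile normalization gave -0.102 (Hbz). The random block gave 0.0348 for the first Slc4a1 over both sexes from E14 to E16.

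Without the arrays of discordant Xist, the second Slc4a1 was 0.0905 in testis and 0.0138 over both sexes from E14 to E16 and -0.0909 in testis minus ovary at E16, and Alas2 was 0.4 in ovary from E14 to E16. Hbb was 0.112 in testis minus ovary at E13, -2.18 in culture against E13 testis and -0.101 in the testis step minus the ovary step, and Hbz was -0.446 in that last comparison and -0.477 in testis minus ovary at E16. Without the arrays of high actin ratio, the first and second Slc4a1 were -0.00665 and -0.449 in ovary from E13 to E16, the second was 0.225 in culture against E13 testis, Hbz was 1.44 in culture against E16 testis, and Alas2 was -0.109 over both sexes from E14 to E16.

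With 1 array left out at a time, these differences changed sign and ranged as follows. In testis minus ovary at E13, Hbb ran from -0.854 to 0.112 and the second Slc4a1 from -0.392 to 0.0111. At E14 Hbb ran from -1.01 to 1.51, Alas2 from -0.881 to 0.398, Hbz from -0.303 to 0.376 and the second Slc4a1 from -0.434 to 0.277. At E16 Hbb ran from -0.0861 to 0.594, Hbz from -0.477 to 1.81 and the second Slc4a1 from -0.0909 to 0.904. In ovary, Alas2 ran from -0.896 to 0.4 from E14 to E16, and from E13 to E16 the first and second Slc4a1 ran from -0.0275 to 0.0693 and from -0.449 to 0.545. In testis from E14 to E16 the second Slc4a1 ran from -0.24 to 0.0905. Over both sexes in that step Alas2 ran from -0.109 to 0.539 and the first Slc4a1 from -0.0877 to 0.048. In culture against E13 testis Hbb ran from -1.7 to 4.7 and the second Slc4a1 from -0.482 to 0.225, and against E16 testis Hbz ran from -2.93 to 1.44. In the testis step minus the ovary step Hbz ran from -0.362 to 1.93.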
